A study of Capsicum annuum with 6 samples.

Results

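The 200 annotated genes with the steadiest level were examined as candidate reference genes for the first branch site of pepper, where the main stem forks. They were the genes with a cv.59 chromosome identifier and a mean of 10 to 100 FPKM (read fragments scaled to gene length and sequencing depth), selected on the lowest standard deviation (SD) of log2(FPKM + 1) over 6 RNA-seq libraries. They made up 1.95% of the 10273 annotated genes in this range of level and 0.806% of the 24829 genes listed. Genes of 2 runs of identifiers on chromosomes 4 and 7 were left out beforehand, of which 93 lay in the range. The libraries were made from accession B010, a compact *Capsicum annuum* with a small first branch angle, and from accession B003, a loose one with a large angle. Each accession had 3 biological replicates of first branch tissue taken at early flowering, each pooled from several plants. Each group is therefore 1 genotype at 1 stage, and branch form and genotype cannot be told apart. The level of a gene in such tissue cannot tell apart fewer cells of a type and less RNA per cell.

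Reference genes are transcripts whose level is taken as constant, so that the amount of another transcript can be expressed relative to them in qRT-PCR. In plants, genes of glycolysis, the cytoskeleton, translation and protein turnover are commonly used, and their steadiness has to be measured anew in each tissue and genotype. The usual criteria are a moderate level, a low spread over samples and ratios to other candidates that stay constant whatever the amount of RNA loaded. The qRT-PCR of the study was normalised to *CaGAPDH*, which encodes a glycolytic enzyme. Its cv.59 identifier is not given in the sources used here, so its own spread is not reported. The deposited values do not pair cv.59 identifiers with gene names, and 0 of them matched the RefSeq gene table of the species, which is of the assembly UCD10Xv1.1. The steady genes are therefore given by identifier, with the chromosome that the identifier states, without a function or a sequence, and the tissue could not be checked against named markers. Of the 11 cv.59 genes for which the study lists qRT-PCR primers, 0 were steady genes and 0 were among the 10273 genes of the range, with SDs of log2(FPKM + 1) from 0.372 to 1.36. The study selected its qRT-PCR targets among differentially expressed genes. The range also admits no gene of the runs left out and none without a chromosome identifier. These counts therefore follow in part from how both sets were chosen.

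The counts on genes summed to between 29891192 and 47659515 per library. Over the libraries, a steady gene had a mean of 194 to 10647 counts, with a median of 1340 counts. The genes were chosen by their FPKM in all 6 libraries. The levels, spreads and differences between accessions given below for the 200 genes therefore describe the choice and were not tested as findings.

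The SD of log2(FPKM + 1) of the steady genes ran from 0.0214 to 0.0915, with a median of 0.0766, against a median of 0.355 over all genes in the range. Expressed as the coefficient of variation of FPKM, this was a median of 5.50% and at most 7.05%, against a median of 25.6% in the range. The highest library stood above the lowest by a factor of 1.04 to 1.22, and this factor was under 1.1 for 19 genes and under 1.2 for 186 genes. There was no gap at the end of the list. The last genes inside it, Capann_59Chr04g012810, Capann_59Chr03g050690 and Capann_59Chr12g019700, had SDs of 0.0908, 0.0908 and 0.0915. The next genes outside it, Capann_59Chr02g008740, Capann_59Chr03g001550 and Capann_59Chr09g009960, had SDs of 0.0916, 0.0917 and 0.0918. For Capann_59Chr12g019700, the last gene inside, the levels were 21.8, 20.4 and 23.6 FPKM in B010, against 20.2, 19.6 and 20.6 FPKM in B003. The list is thus the lower end of a continuous distribution, as the plot of spread against level shows.

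**Figure D1:**
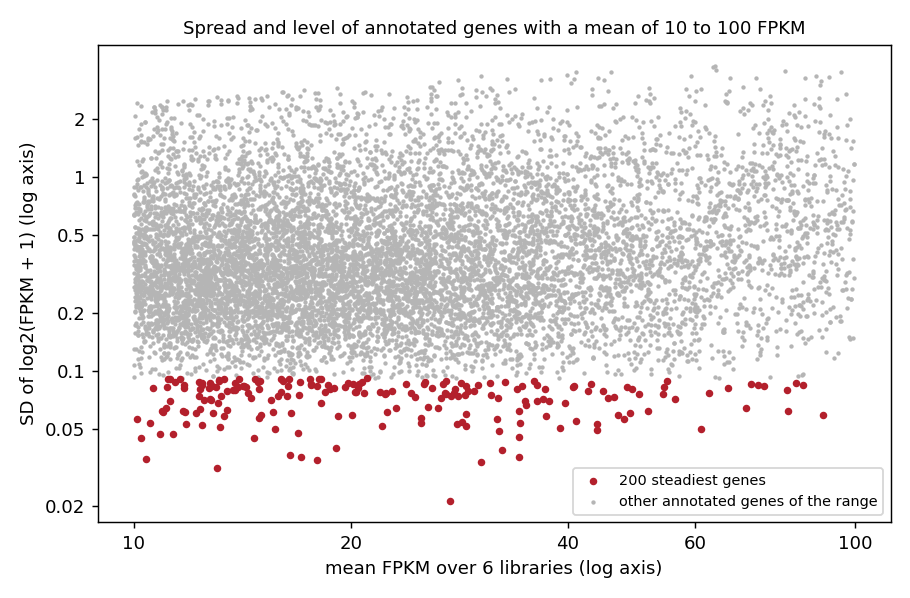
Each point is an annotated gene, with its mean FPKM on the horizontal axis and the SD of log2(FPKM + 1) over the 6 libraries on the vertical axis, both logarithmic; red points are the 200 steadiest genes and grey points the other genes of the range. The red points occupy the lower edge from 0.0214 to 0.0915 at every level from 10 to 90.3 FPKM, and 1 gene stands below the rest.

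Capann_59Chr03g045070, on chromosome 3, had the lowest SD of all, 0.0214. Its level was 27.8, 27.3 and 27.9 FPKM in B010, against 27.7, 27.0 and 26.9 FPKM in B003. Its raw counts were 4206, 2653 and 2690 in B010, against 3263, 2786 and 2729 in B003, and so followed the depth of the libraries. The coefficient of variation of its FPKM was 1.54%, and the libraries of both accessions overlapped. The spread was below the SD of 0.0255 that counting error alone would give, with a ratio of 0.838.

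Other genes with a low SD shared chromosome 3. Capann_59Chr03g006950 had 13.02, 12.6 and 13.5 FPKM in B010, against 12.8, 13.3 and 13.1 FPKM in B003. Capann_59Chr03g022660 had 29.4, 30.5 and 31.5 FPKM in B010, against 30.7, 29.7 and 30.2 FPKM in B003. In neither gene was 1 accession above the other, and the SDs were 0.0316 and 0.0338. Capann_59Chr03g000230 had 32.3, 31.5 and 33.2 FPKM in B010, against 33.4, 31.3 and 33.0 FPKM in B003. Capann_59Chr03g028460, near the lower limit of the range, had 10.2, 9.62 and 10.5 FPKM in B010, against 10.6, 10.1 and 10.4 FPKM in B003. Of the 12 steadiest genes, these 5 were on chromosome 3.

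The remaining genes of the first 12 lay on chromosomes 1, 5, 6, 7 and 8. Capann_59Chr07g018720 was the most abundant of the 12, with 34.3, 33.2 and 34.1 FPKM in B010, against 35.8, 33.5 and 34.3 FPKM in B003. Capann_59Chr05g027110 had 18.2, 17.6 and 18.4 FPKM in B010, against 17.7, 18.4 and 17.3 FPKM in B003. Capann_59Chr05g005130 had 18.3, 19.9 and 19.5 FPKM in B010, against 18.7, 19.0 and 19.0 FPKM in B003. In each of these genes the B010 libraries spanned or overlapped those of B003. Capann_59Chr06g018120 had 17.3, 16.7 and 17.8 FPKM in B010, against 16.8, 16.7 and 16.9 FPKM in B003, and Capann_59Chr01g008040 had 16.5, 16.2 and 17.3 FPKM in B010, against 16.4, 16.2 and 16.1 FPKM in B003. In both genes B010 replicate 3 was the highest library. Capann_59Chr06g012710 and Capann_59Chr08g002450 had fewer reads, with means of 401 and 389 counts. The levels of Capann_59Chr06g012710 were 10.6, 10.1 and 10.01 FPKM in B010, against 10.5, 10.7 and 10.4 FPKM in B003. Their SDs, 0.0350 and 0.0450, were 0.524 and 0.648 times the counting error, and with 0.637 for Capann_59Chr03g028460 these were the lowest ratios among the 12.

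**Figure D2:**
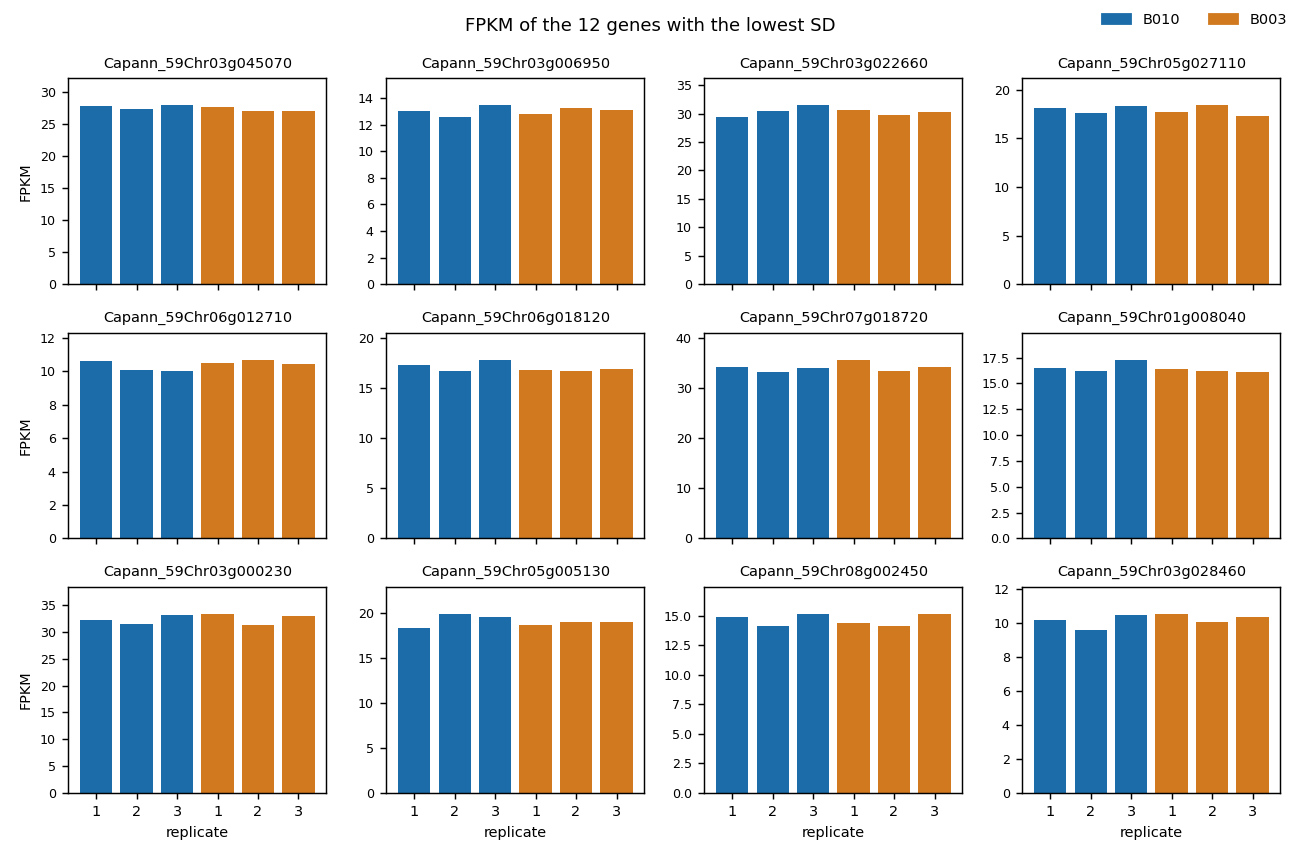
Bars give the deposited FPKM of the 12 genes with the lowest SD in each library, with replicates 1 to 3 of B010 in blue on the left and of B003 in orange on the right, and vertical axes that start at 0. Levels run from about 10.2 FPKM for Capann_59Chr03g028460 to 34.2 FPKM for Capann_59Chr07g018720, and no gene has an accession whose bars all stand above those of the other.

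A reference gene is used through its ratio to others, and the ratio of 2 raw counts within a library does not depend on how libraries are scaled. Genes picked for a low SD of FPKM also have ratios of low SD, so these values follow from the choice. For the 66 pairs among the 12 steadiest genes, the SD of the log2 ratio of counts over the 6 libraries ran from 0.0155 to 0.0791, with a median of 0.0470. The most constant pair was Capann_59Chr06g018120 with Capann_59Chr01g008040, and the least constant was Capann_59Chr05g005130 with Capann_59Chr03g028460. Averaged over its ratios with the other 199 genes, the value for a steady gene was between 0.0727 and 0.127. It was lowest for Capann_59Chr01g008040, at 0.0727, followed by Capann_59Chr06g018120, at 0.0730, and by Capann_59Chr03g045070, at 0.0739.

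Part of the remaining spread was of the size of counting error. Under counting error alone, the SD of log2(FPKM + 1) would have had a median of 0.0380 over the steady genes and 0.0409 over the range. The observed SD was 1.88 times this value at the median of the steady genes, against 8.997 times over the range. It was under 2 times the counting error in 114 of the 200 genes, and at or below it in 19 of them. The order of genes at the top of the list is therefore not resolved at this depth. Among the abundant steady genes, depth was not the limit. Capann_59Chr07g032410, the most abundant at a mean of 90.3 FPKM, had 91.4, 91.1 and 96.6 FPKM in B010, against 85.3, 88.5 and 88.9 FPKM in B003, a spread of 4.09 times the counting error with every B010 library above those of B003. Capann_59Chr07g028500 had 82.0, 94.6 and 80.9 FPKM in B010, against 84.5, 85.6 and 80.8 FPKM in B003, with B010 replicate 2 the highest, and a spread of 5.67 times the counting error. Capann_59Chr10g022650 had 79.3, 83.1 and 90.6 FPKM in B010, against 77.3, 87.3 and 80.1 FPKM in B003. At the lower limit of the range, Capann_59Chr04g000520 had the lowest mean, with 10.8, 9.81 and 10.1 FPKM in B010, against 10.5, 9.60 and 9.92 FPKM in B003, and a spread of 1.39 times the counting error.

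Length was not itself a criterion of the selection, but it enters FPKM and the number of counts at a given level. The effective length of the steady genes, obtained from the ratio of count to FPKM, had a median of 1847 bases (25th to 75th percentile 1090 to 2690), against 1695 bases (1067 to 2523) over the range. Their mean count had a median of 1340, against 1316. When the genes of the range were put into 4 classes of equal size by mean count, 43, 56, 52 and 49 steady genes fell in the lowest to the highest class, that is, 1.67%, 2.18%, 2.02% and 1.91% of the genes there. Level set the range but not the order within it, and the share of steady genes was lower above 60 FPKM. Steady genes were 2.02% of the genes between 10 and 20 FPKM and 2.03% between 20 and 40 FPKM. The share was 1.85% between 40 and 60 FPKM, 1.28% between 60 and 80 FPKM and 1.43% between 80 and 100 FPKM. The uppermost classes hold 7 and 5 steady genes.

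All 12 chromosomes held steady genes, as read from the identifiers. Chromosome 3 held the most, 32 genes or 2.42% of its genes in the range. Chromosome 10 had the highest share, with 22 genes or 3.30%, and chromosome 4 the lowest, with 10 genes or 1.35%. Among genes of the range in the order of their identifiers, 5 pairs of neighbours were both steady, which took in 10 genes. These were picked out after their values were seen. Since 1.95% of the genes of the range were steady, some such pairs arise even where neighbours are unrelated. Whether 5 pairs exceed that number was not tested. On chromosome 10, Capann_59Chr10g012940 had 62.2, 58.985 and 64.3 FPKM in B010, against 61.4, 58.5 and 61.8 FPKM in B003. Its neighbour Capann_59Chr10g012950 had 53.5, 53.2 and 60.8 FPKM in B010, against 57.7, 55.2 and 57.1 FPKM in B003. In both genes the libraries of the accessions overlapped. On chromosome 8, Capann_59Chr08g002440 had 15.5, 17.1 and 15.1 FPKM in B010, against 14.8, 15.02 and 15.5 FPKM in B003. It is followed by Capann_59Chr08g002450, one of the 12 steadiest, which had 14.9, 14.1 and 15.2 FPKM in B010, against 14.4, 14.2 and 15.2 FPKM in B003. B010 replicate 2 was the highest library in the first of these neighbours and the lowest in the second. The other pairs were Capann_59Chr03g006950 with Capann_59Chr03g006960, Capann_59Chr05g027060 with Capann_59Chr05g027110, and Capann_59Chr08g027040 with Capann_59Chr08g027050. Neither gene positions nor whether reads were counted by strand are given in the sources used here. Whether these neighbours overlap and could share reads was therefore not tested.

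No steady gene was called between B010 and B003. All 200 were tested with edgeR's quasi-likelihood test on raw counts, with p-values adjusted over all 24738 genes. With limits of 0.05 on the adjusted p and of 1 on the size of the log2 fold change, 25.3% of all tested genes were called and 18.4% of the range, against 0 of the 200. Without a limit on the fold change, 38.8% of all tested genes and 37.4% of the range were called, again against 0 of the 200. Unadjusted p was under 0.05 for 0 of the 200 with edgeR and for 0 with DESeq2, and the smallest edgeR adjusted p was 0.323. This contrast lies within the selection, since a gene that differs between accessions has a large SD over all libraries. The log2 fold changes of B010 over B003 ran from -0.16 to 0.15, with a median absolute value of 0.0489, against 0.461 in the range. Their standard errors, from 0.0989 to 0.178, were of the same size, and a small difference is not shown to be absent. These errors draw on other genes. The biological coefficient of variation that edgeR gave the steady genes had a median of 0.184, against 0.215 in the range.

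The libraries of the accessions were fully separated in some steady genes, none of which passed the test. In 28 steady genes, or 14%, all FPKM values of one accession lay above those of the other, against 49.8% of all tested genes and 48.4% of the range. Of these, 15 were higher in B010 and 13 higher in B003, against 24.9% of all tested genes in each direction. Capann_59Chr04g002140, singled out after its values were seen, was the clearest. It had 10.4, 10.5 and 10.5 FPKM in B010, against 11.3, 11.4 and 11.5 FPKM in B003, and 99.1% of the variance of its log2(FPKM + 1) lay between the accessions. This share had a median of 17.4% over the steady genes and 54.3% over the range. On TMM-scaled CPM, counts scaled to an effective library size as described below, its libraries overlapped, with 17.0, 18.8 and 15.2 in B010, against 17.3, 19.4 and 19.3 in B003. On that scale 4 of the 200 genes were separated, against 54.4% of all tested genes and 53.7% of the range. They were, named after their values were seen, Capann_59Chr09g027370, Capann_59Chr07g007060, Capann_59Chr06g008650 and Capann_59Chr08g003610.

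The largest fold changes among the steady genes were also small. For Capann_59Chr04g022160, 12.8, 13.4 and 13.3 FPKM were found in B010, against 11.96, 11.6 and 11.6 FPKM in B003, a log2 fold change of 0.15. For Capann_59Chr05g024310, 57.5, 57.1 and 58.7 FPKM were found in B010, against 53.3, 49.8 and 53.3 FPKM in B003, a log2 fold change of 0.14. For Capann_59Chr03g021860, 30.2, 31.1 and 32.9 FPKM were found in B010, against 28.6, 29.4 and 27.9 FPKM in B003, a log2 fold change of 0.12. The accessions did not overlap in FPKM in any of the 3 genes, all of which had higher values in B010, but they overlapped in TMM-scaled CPM. Without B010 replicate 2 the log2 fold changes were 0.0565 for Capann_59Chr04g022160, 0.0662 for Capann_59Chr05g024310 and 0.0471 for Capann_59Chr03g021860. In the other direction, Capann_59Chr01g003520 had 39.8, 40.4 and 42.7 FPKM in B010, against 44.3, 45.6 and 45.8 FPKM in B003, a log2 fold change of -0.16. Capann_59Chr02g017210 had 69.5, 69.5 and 74.4 FPKM in B010, against 79.3, 77.5 and 77.9 FPKM in B003, a log2 fold change of -0.15. Capann_59Chr11g005450 had 12.5, 13.3 and 13.4 FPKM in B010, against 13.95, 14.6 and 14.5 FPKM in B003, a log2 fold change of -0.15. These 3 genes were also separated in FPKM and overlapped in TMM-scaled CPM, and the fold change of Capann_59Chr11g005450 was -0.24 without B010 replicate 2 and -0.0945 without B010 replicate 3. None of these genes passed the test, with edgeR adjusted p from 0.323 to 0.488.

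The deviations that remained were not spread evenly over the libraries. On the scale of log2(FPKM + 1), the median steady gene stood 0.0443 above its mean in B010 replicate 3 and at -0.0405 in B010 replicate 2, while the medians of the other 4 libraries were between -0.0148 and 0.0062. B010 replicate 3 was the highest library in 71 of the 200 genes, and B010 replicate 2 was the lowest in 67. Over all genes of the range, the medians had the same signs in these libraries and were larger, 0.103 in B010 replicate 3 and -0.131 in B010 replicate 2. The share of the library's counts that 1 FPKM stood for, relative to its median over the libraries, was 1.02 in B010 replicate 2 and between 0.996 and 1.00 in the others. FPKM there was thus slightly lower than a scaling by counts on genes gives. The part of this in the deviations was not tested.

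Which genes counted as steady depended on how libraries were scaled. FPKM scale each library to its mapped reads, whereas the TMM method of edgeR sets a factor such that most genes have similar levels. The TMM factors were 0.996, 0.923 and 1.12 in replicates 1, 2 and 3 of B010, against 1.06, 0.951 and 0.961 in those of B003. Factors that hold the summed counts of the steady genes constant were 0.991, 0.995 and 1.03 in B010, against 1.01, 0.985 and 0.990 in B003. They were closer to 1 than the TMM factors in every library but B010 replicate 1. Since the genes were chosen for constant FPKM, factors near 1 follow from the choice. On log2(TMM-scaled CPM + 1), the median steady gene stood at 0.0963 in B010 replicate 2 and at -0.112 in B010 replicate 3. Over all genes of the range, these medians were 0.0038 and -0.055. On this scale 191 of the 200 steady genes were above their mean in B010 replicate 2, and 5 in B010 replicate 3. Most steady genes were thus shifted together, and further than the median gene of the range. B010 replicate 2 was then the highest library in 108 of the 200 genes and B010 replicate 3 the lowest in 113, the opposite of the order in FPKM. The median SD of the 200 genes was 0.104 on this scale, and their median rank among the 10273 genes of the range was 605.5. The 100 most abundant genes took 13.1% and 13.2% of the counts in B010 replicates 2 and 3, and the 10 most abundant took 3.35% and 4.15%. Their part in the factors was not tested.

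**Figure D3:**
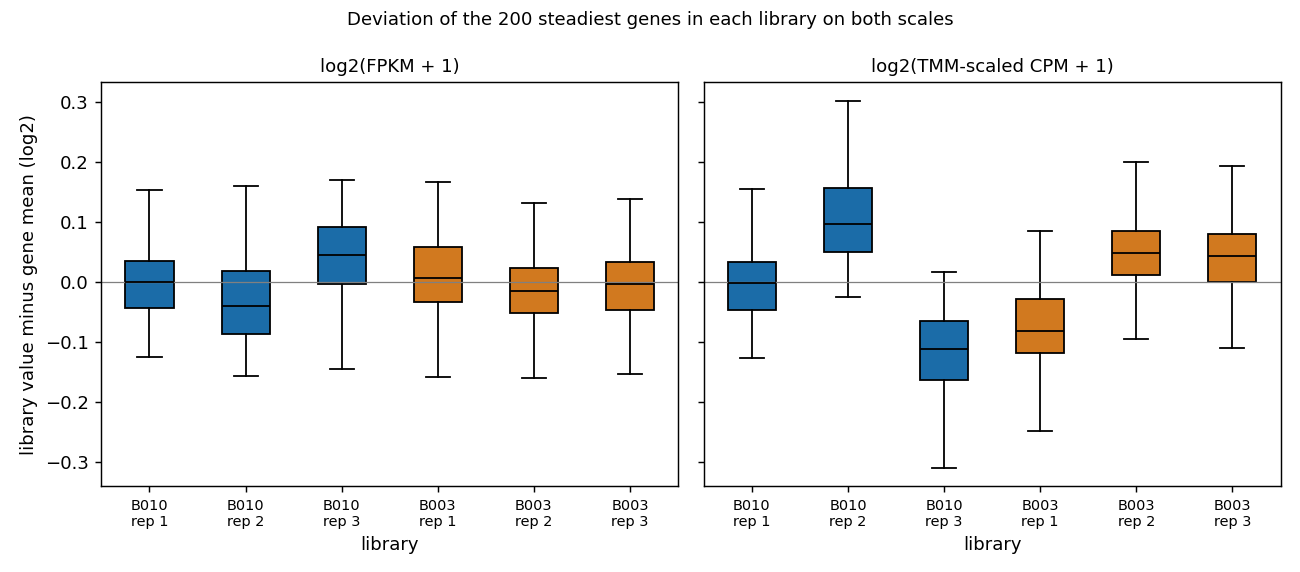
Boxes show the deviation of the 200 steadiest genes from their own mean in each library (B010 in blue, left; B003 in orange, right), in log2 units, with the median as a line and whiskers to the lowest and highest gene; the left panel is on log2(FPKM + 1) and the right panel on log2(TMM-scaled CPM + 1). On FPKM all medians lie between -0.0405 and 0.0443, whereas on TMM-scaled CPM B010 replicate 2 lies at 0.0963 and B010 replicate 3 at -0.112.

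When the list was drawn again with the SD of log2(TMM-scaled CPM + 1), 35 of the 200 genes were kept, which is also 35 of the 200 genes of the new list. With RLE factors, the scaling of DESeq2, 39 were kept, and 35 genes were on both of these lists. Changes that left the scaling to library size in place moved the list much less. From 177 to 191 of the genes were kept with other pseudocounts, the coefficient of variation or the range in place of the SD, or CPM scaled to library totals. The genes drawn on TMM-scaled CPM had a median SD of 0.0612 on that scale and of 0.119 on log2(FPKM + 1). A total of 26 genes were on the list under each of the 7 other scales and measures. Of the 12 steadiest genes, only Capann_59Chr03g028460 was among these. The others of the first 12 had SDs of 0.0806 to 0.124 on log2(TMM-scaled CPM + 1). These lay above 0.0735, the highest SD on the list drawn with TMM.

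**Figure D4:**
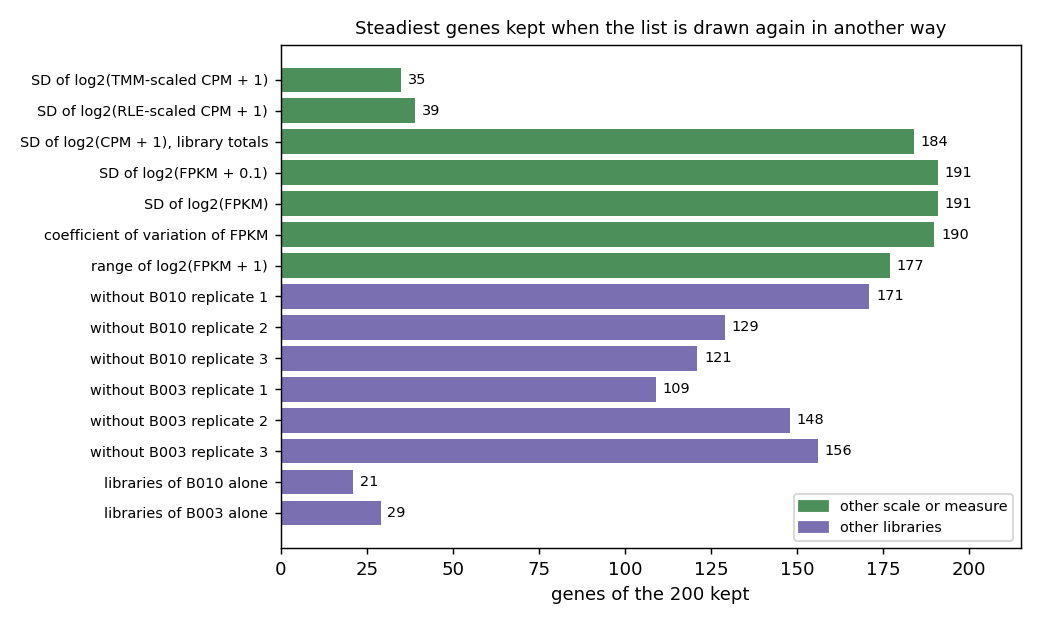
Bars give how many of the 200 steadiest genes were kept when the list was drawn again, with another scale or measure of steadiness in green and with other libraries in purple. TMM and RLE scaling kept 35 and 39 genes and the draws on 1 accession kept 21 and 29, while leaving out 1 library kept 109 to 171.

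The 26 genes that were on every one of these lists had a median SD of 0.0742 on log2(FPKM + 1) and 0.0614 on log2(TMM-scaled CPM + 1). Being on every list requires a low spread on each scale. Their low spreads and small differences between accessions therefore follow from the choice and were not tested. They had means of 10.2 to 62.8 FPKM and lay on 11 of the chromosomes, with 6 on chromosome 10 and 5 on chromosome 1. Between accessions, their log2 fold changes ran from -0.0987 to 0.0535. The one with the lowest SD in FPKM was Capann_59Chr03g028460, given above. On TMM-scaled CPM it had 10.1, 10.5 and 9.29 in B010, against 9.82, 10.5 and 10.6 in B003. Next came Capann_59Chr08g027050, with 41.5, 39.4 and 43.6 FPKM in B010, against 41.5, 41.0 and 39.2 FPKM in B003. Its TMM-scaled CPM were 77.9, 81.9 and 73.1 in B010, against 73.5, 80.7 and 76.2 in B003, so B010 replicate 3 was the highest library on the first scale and the lowest on the second. Capann_59Chr10g027450 had 12.97, 12.4 and 13.8 FPKM in B010, against 13.9, 13.3 and 13.5 FPKM in B003. Its TMM-scaled CPM were 21.2, 22.3 and 20.1 in B010, against 21.4, 22.8 and 22.9 in B003, and the accessions overlapped on both scales.

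The lowest SD on TMM-scaled CPM among the 26 was 0.0400, in Capann_59Chr02g001860, which like the next gene was singled out after its values were seen. Its TMM-scaled CPM were 86.6, 88.9 and 81.6 in B010, against 85.5, 86.5 and 85.7 in B003. The most abundant of the 26 in FPKM was Capann_59Chr11g008510. It had 62.3, 59.1 and 68.4 FPKM in B010, against 64.8, 62.5 and 59.6 FPKM in B003. With a mean of 10647 counts it was also the most deeply covered of all 200 genes.

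In a further comparison, the library being measured was kept out of the draw. For each library in turn, 200 genes were drawn by the same rule from the other 5, and their level in the library left out was set against their mean in the 5. The median absolute deviation on log2(FPKM + 1) was 0.0639, 0.137 and 0.161 for replicates 1, 2 and 3 of B010, against 0.151, 0.0799 and 0.0818 for those of B003. Over all genes of the range it was 0.297, 0.381 and 0.277 for the B010 replicates, against 0.277, 0.326 and 0.353 for the B003 replicates. Genes drawn as steady stayed closer to their mean than the range did in every library left out. Each draw still used libraries of both accessions. It thus tended to pass over genes that differ between accessions, while the range kept them. The smaller deviations therefore follow in part from the draw. Deviations within 0.2 were found for 190, 141 and 134 of the 200 genes in the B010 replicates, against 120, 168 and 176 in the B003 replicates. Over the range this share was from 29.3% to 38.3%. Some drawn genes departed further, since the largest deviation was 1.14, in B003 replicate 1. The drawn genes shifted with the range, with medians of 0.147 in B010 replicate 3 and -0.121 in B010 replicate 2, against 0.110 and -0.177 over the range.

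Of the 200 steady genes, 171, 129 and 121 were drawn again without replicates 1, 2 and 3 of B010, against 109, 148 and 156 without those of B003. In all, 76 genes were drawn whichever library was left out, among them each of the 12 steadiest genes. Each of these draws used libraries that the choice of the 200 had also used. That the genes of lowest SD were drawn again therefore follows from the choice and is no independent check.

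**Figure D5:**
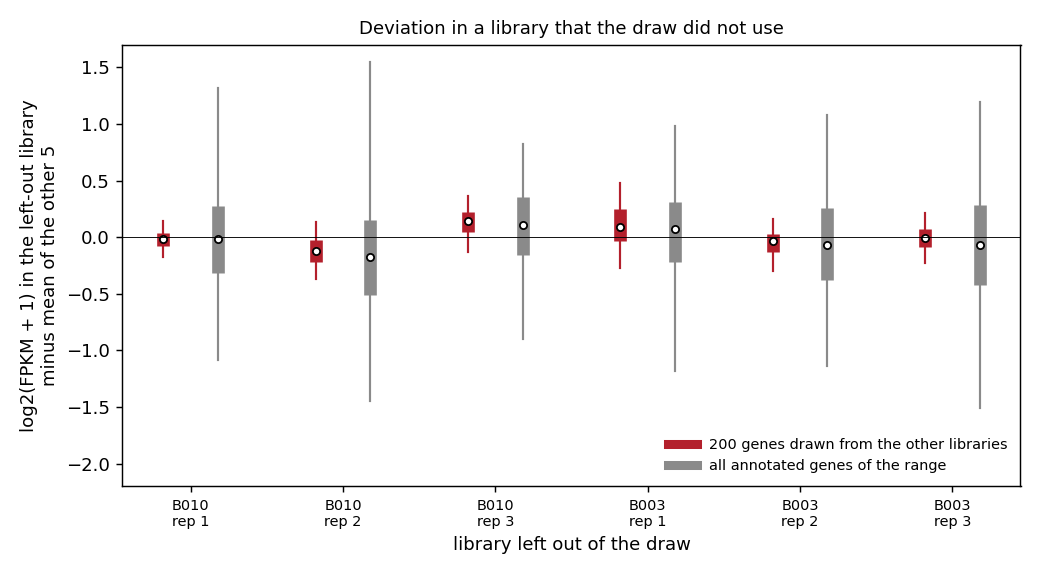
For each library left out of the draw (horizontal axis, B010 left of B003), thick bars span the 25th to 75th and thin lines the 5th to 95th percentile of the log2(FPKM + 1) of that library minus the mean of the other 5, with the median as a white point, for the 200 genes drawn from the other libraries (red) and for all annotated genes of the range (grey). The red bars are narrower than the grey ones in all 6 libraries, and their medians run from -0.121 in B010 replicate 2 to 0.147 in B010 replicate 3.

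Genes with the lowest SD in 1 accession had a larger SD in the other, though a lower one than the range. The 200 genes drawn from the 3 B010 libraries alone had a median SD of 0.0230 there and of 0.168 in B003, where all genes of the range had a median SD of 0.205. The 200 drawn from the B003 libraries alone had a median SD of 0.0199 there and of 0.148 in B010, against 0.212 for the range. The SDs of both draws in their own libraries were below the median counting error over the range, 0.0409. A larger SD in libraries not used for the draw thus follows in part from the choice. How far steadiness differs between the accessions was not tested. The difference between accessions was within 0.2 on log2(FPKM + 1) for 67 of the genes drawn in B010 (33.5%) and 79 of those drawn in B003 (39.5%). For the genes of the range it was within 0.2 in 26.4% and 26.6%, so most genes drawn as steady in 1 accession differed between accessions by more than this. A difference of at least 1 was present in 14 genes of each draw, against 19.4% and 19.1% of the range. The draws on B010 and on B003 had 6 genes in common, and 21 and 29 of the 200 steady genes were in them.

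The genes common to both draws had a low spread among replicates, which is what the draws selected. In all but 1 of them every library of one accession lay above those of the other, against 48.4% of the genes of the range. With so low a spread, a small difference is enough to separate the accessions. The common genes were singled out after their values were seen. Capann_59Chr03g045070, the steadiest gene over all libraries, was the exception, with overlapping accessions. Capann_59Chr04g002140, given above, was the other that was among the 200. The remaining 4 were not steady genes. Capann_59Chr02g033140 had 44.1, 44.4 and 45.0 FPKM in B010, against 19.2, 18.7 and 18.4 FPKM in B003. Every B010 library lay above every B003 library, and the difference in log2(FPKM + 1) was 1.203. Capann_59Chr05g009680 had 10.9, 10.8 and 10.7 FPKM in B010, against 16.8, 16.6 and 17.2 FPKM in B003, a difference of -0.60. Each of these had closely spaced replicates in both accessions and levels that did not overlap between them. Smaller differences were present in the remaining ones. Capann_59Chr02g002820 had 15.7, 15.3 and 14.97 FPKM in B010, against 12.2, 12.3 and 12.1 FPKM in B003. Capann_59Chr03g002760 had 24.7, 25.8 and 25.4 FPKM in B010, against 30.7, 30.4 and 31.6 FPKM in B003.

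Reference genes are usually combined by their geometric mean. For the 3 genes with the lowest SD, this mean was 22.0, 21.9 and 22.8 FPKM in B010, against 22.2, 22.0 and 22.0 FPKM in B003, a coefficient of variation of 1.44%. For the 12 steadiest genes the coefficient was 1.40%, and for all 200 it was 1.87%. On TMM-scaled CPM the same combinations varied by 6.48%, 6.34% and 5.92%. For the 26 genes on every list the coefficient was 4.46% on FPKM and 3.36% on TMM-scaled CPM. The combinations taken by SD of FPKM alone varied more on TMM-scaled CPM, and that of the 26 genes varied less. The former were chosen on FPKM, and the 26 genes on TMM-scaled CPM as well. This contrast therefore follows from the choice and does not rank the combinations as references. For the 12 steadiest genes, the highest library stood above the lowest by a factor of 1.19 on TMM-scaled CPM.

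Factors from the steady genes gave nearly as many calls over all genes as TMM did. With factors taken from the steady genes in place of TMM, edgeR called 6141 genes at the limits given above, against 6260 with TMM, and 6027 genes were called with both. These are 98.1% of the calls with factors from the steady genes and 96.3% of the calls with TMM. With library totals only, edgeR called 6107 genes. The number of calls thus depended little on the factors and does not show how well the steady genes serve as references. The median log2 fold change of the steady genes was 0.0095 with their own factors and -0.00094 with TMM. They were higher in B010 in 106 of 200 with their own factors and in 99 with TMM. Another scaling moves all genes together, and the median over all tested genes was 0.0195 with the factors from the steady genes and 0.0067 with TMM.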

How the data were processed

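First branch RNA-seq values of B010 and B003, with 3 libraries each, were used as deposited. Reads were quality-filtered by the authors before alignment (HISAT2, cv.59 genome), and StringTie is also named in the submitters' processing notes. The deposited counts are raw whole numbers per gene, and the FPKM that the authors deposited divide them by exon length and mapped reads. The counter, strand setting and treatment of multiply aligned reads are not given in the sources used here. The deposited columns of fold changes, p-values, q-values and calls between accessions were not used. All columns of per-sample values were used, and every listed feature has an identifier.

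The 200 genes were chosen by the SD of log2(FPKM + 1) with a pseudocount of 1. Counts were tested with edgeR 4.0.16 (expression filter, TMM, quasi-likelihood test, Benjamini-Hochberg adjustment over 24738 genes, no covariate) in R 4.3.3. The SD under counting error was computed from Poisson variance. Effective length is the count over FPKM, scaled to the library total, and is therefore approximate. Named genes were the 12 with the lowest SD, 3 on each side of the end of the list, 3 with the highest and 3 with the lowest mean, 3 with the largest fold change in each direction, up to 5 called ones and the 3 steadiest on every list. The genes, lists and rules were chosen with earlier results of these data known. Alternatives were DESeq2 1.42.0, limma 3.58.1 on log2(FPKM + 1), other factors, no filter, a replicate block, other measures of steadiness and the omission of libraries. Scripts were tested on simulated data. P-values measure the spread between pooled replicates. The SD from Poisson variance covers counting error only.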

Additional observations from a re-analysis of the deposited data

How the results depend on the processing

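In the 14 other fits 0 steady genes were called, with or without a limit on the fold change, and 0 had an unadjusted p under 0.05. The selection on a low SD over the same libraries sets this, so it is no sign of stability. Their smallest adjusted p ran from 0.136 (edgeR without B003 replicate 1) to 0.502 (edgeR without B010 replicate 1). Over all genes, leaving out 1 library gave from 3615 calls, without B010 replicate 1, to 6967, without B010 replicate 3, and 4117 without B003 replicate 3. DESeq2 called 7279 and limma 4791, or 4543 with a filter on low FPKM. Without the limit on fold change, edgeR's number over all genes was 9598. In absolute value, the median fold change (log2) of the steady genes was between 0.0483 and 0.0630 in the other fits. How many were higher in B010 ran from 44 without B010 replicate 2 to 140 without B010 replicate 3. The fold changes of the 30 named genes moved by more than their spread within accessions in 62 of 420 refits and changed sign in 55. None of these genes was called.

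The median SD was 0.104 on TMM-scaled and 0.101 on RLE-scaled CPM, and from 0.0671 to 0.0779 when 1 library was left out. The list kept 35 genes with TMM, 39 with RLE, 109 to 171 without 1 library, 21 from B010 alone and 29 from B003 alone. The cause of these changes was not tested.

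Same-numbered libraries of the accessions had correlations of deviations of -0.0032, 0.0763 and 0.178, so the numbers were not taken to pair them. With the replicate number as a block, edgeR called 5458 genes over all and 0 of the steady genes.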
